A study of Mus musculus with 43 samples.

Results

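The 10 genes described here handle retinoids in the gut or respond to them: the homeobox gene Isx, the retinol-binding proteins Rbp2 and Rbp7, the dehydrogenases Rdh7, Dhrs9, Aldh1a1 and Aldh1a3, the carotenoid cleavage enzyme Bco1, the lipoprotein and carotenoid receptor Scarb1, and the retinoic acid receptor gene Rarg. They were picked by name out of the 23951 genes in the RNA tables, with the measured change of Isx in the day 11 organoids in view, so the day 11 values of these genes are given as a description with no test. The same holds for Rbp7 and Aldh1a3 in the irradiated day 7 organoids. The samples were primary intestinal organoids grown from wild-type C57BL/6 mice. Bulk RNA was measured in 18 libraries, in FPKM, a unit that scales fragments to gene length and library depth, in 3 tables of 3 vehicle and 3 TGFB1 libraries each. The non-irradiated organoids received vehicle or 2 ng/mL TGFB1, a cytokine of the transforming growth factor beta family, on day 6 for 24 h and are labelled day 7 (D7). Another set was irradiated with 4 Gy on day 4, treated in the same way on day 6 and collected on day 7, and another had the same irradiation and treatment and was collected on day 11 (D11). Single cells were profiled in 7 libraries. Of these, 4 came from C57BL/6 organoids irradiated with 4 Gy on day 4 and collected on day 8 after vehicle (0 h) or after 6, 15 or 24 h of 1 ng/mL TGFB1, with 1 library per time. The other 3 held Ki67-RFP-positive crypt cells, sorted from mice of the Mki67tm1.1Cle/J reporter strain: 1 library from a non-irradiated control and 2 from 12 Gy whole-body irradiation, taken at 56 h. The labels do not say whether the bulk replicates came from separate cultures or mice, so the p-values below measure only the spread between these libraries, which may be technical.

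Vitamin A reaches the intestinal epithelium as retinyl esters or as provitamin A carotenoids. SCARB1 helps carotenoids enter the enterocyte and BCO1 splits beta-carotene into retinal. RBP2 carries retinol and retinal inside the cell, and LRAT turns retinol into retinyl esters for export in chylomicrons. Retinol dehydrogenases and dehydrogenase/reductases of the DHRS family convert retinol and retinal into each other, and the ALDH1A enzymes oxidise retinal to retinoic acid, which binds the nuclear receptors RARA, RARB and RARG. ISX is an intestinal transcription factor that is known to be induced by retinoic acid and to repress Scarb1 and Bco1.

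Upstream sequences of 4 of the genes are shown because the pairs differ in how they moved: Isx and Rbp2 were higher with TGFB1 at D11, while Bco1 was lower there and Rbp7 was lower at D7. RefSeq promoter entries on build GRCm38.p6 matched 8 of the 10 genes, all but Aldh1a3 and Scarb1. Each line gives the 250 bases before the annotated transcription start, 5′ to 3′ on the gene's strand, and capitals mark matches, on either strand, to 7 sets of letters.
Isx, chr8:74872924-74873173, + strand: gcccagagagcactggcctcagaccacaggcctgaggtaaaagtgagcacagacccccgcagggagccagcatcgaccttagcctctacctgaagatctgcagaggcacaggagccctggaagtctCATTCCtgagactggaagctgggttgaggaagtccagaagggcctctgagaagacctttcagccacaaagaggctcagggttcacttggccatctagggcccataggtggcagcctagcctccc
Bco1, chr8:117095615-117095864, + strand: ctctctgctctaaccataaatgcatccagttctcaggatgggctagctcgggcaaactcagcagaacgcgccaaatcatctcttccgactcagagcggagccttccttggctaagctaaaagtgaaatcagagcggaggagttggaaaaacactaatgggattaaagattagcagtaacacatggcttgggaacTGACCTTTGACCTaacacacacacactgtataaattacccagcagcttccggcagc
Rbp2, chr9:98490287-98490536, + strand: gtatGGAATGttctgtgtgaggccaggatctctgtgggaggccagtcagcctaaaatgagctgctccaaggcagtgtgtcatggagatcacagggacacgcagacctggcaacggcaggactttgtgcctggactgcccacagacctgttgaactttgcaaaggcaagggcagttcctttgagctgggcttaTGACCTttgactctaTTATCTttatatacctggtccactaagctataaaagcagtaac
Rbp7, chr4:149454969-149455218, - strand: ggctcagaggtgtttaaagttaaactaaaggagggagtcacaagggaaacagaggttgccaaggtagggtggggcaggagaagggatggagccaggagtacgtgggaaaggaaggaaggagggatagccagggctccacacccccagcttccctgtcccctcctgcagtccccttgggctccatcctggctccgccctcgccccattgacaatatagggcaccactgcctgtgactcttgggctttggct
The core bound by retinoid and other nuclear receptors was searched as AGGTCA (in 14.0% of all 32851 promoter entries), and a direct repeat of that core with 1 base between, which overlaps it, is in 0.0335%. The SMAD element was searched as CAGACA (17.1%), the AP-1 site as TGANTCA (6.75%), the TEAD site as GGAATG (12.6%), the GATA site as AGATAA (9.99%) and the homeobox core as TAATTG (7.17%). The Bco1 sequence held the direct repeat, which 11 entries in all hold, beginning 56 bases before the start. The Rbp2 sequence held 1 nuclear receptor core at 58 bases, 1 TEAD site at 246 bases and 1 GATA site at 43 bases before the start. The Isx sequence held 1 TEAD site at 124 bases before the start, and the Rbp7 sequence held none of these letters. Such a match is a description of the letters only. The Rbp7 stretch lies inside the annotated gene (149449687 to 149466462), before an internal start and not before the outer end of the gene. The Bco1 stretch runs slightly past the annotated gene start at 117095851.

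**Figure D1:**
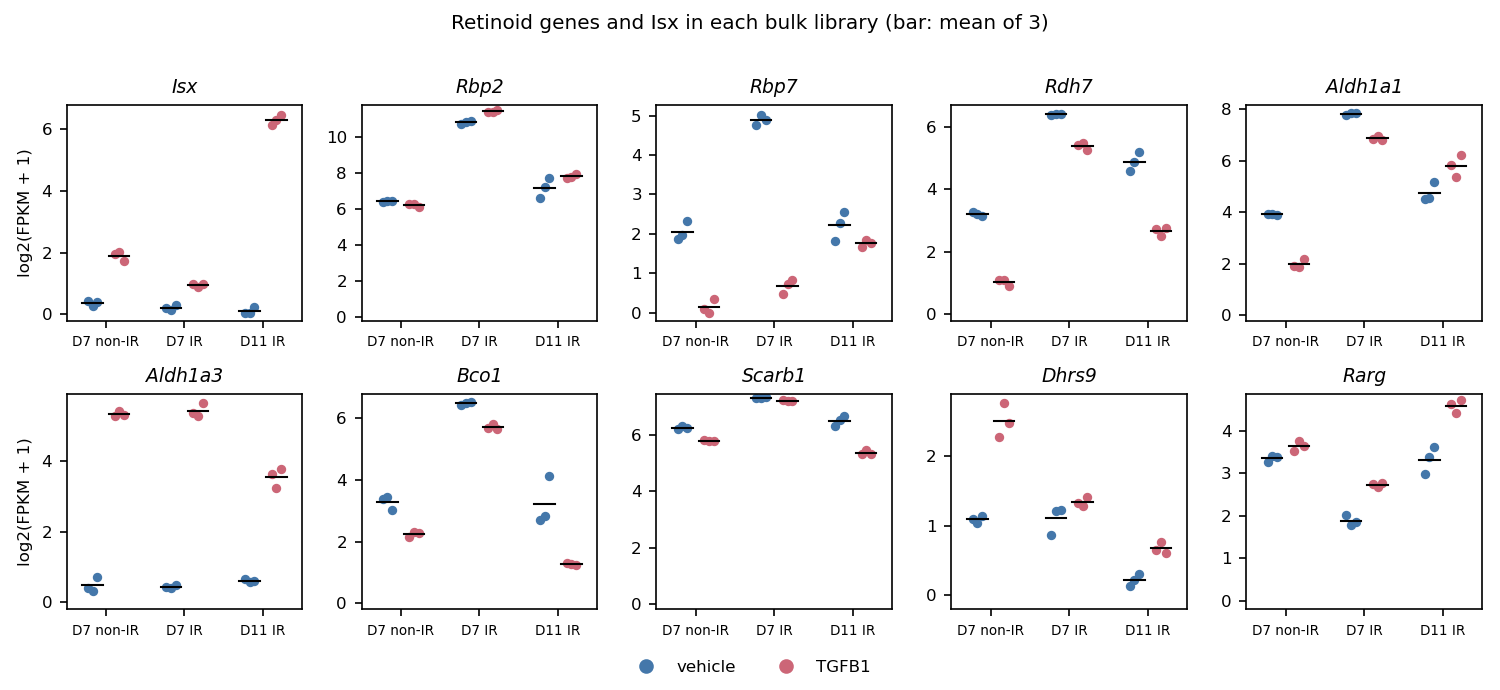
Each panel plots 1 of the 10 genes as log2(FPKM + 1), with 1 point per library and a bar at the mean of the 3 libraries of a group, for vehicle and TGFB1 in non-irradiated D7, irradiated D7 and irradiated D11 organoids. Isx with TGFB1 lies between 68.5 and 86.3 FPKM at D11 and at or below 3.07 FPKM at D7, and the 3 tables were normalised separately.

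Isx was nearly silent in vehicle organoids and was high in 1 setting only among the 6 bulk groups, irradiated organoids collected at D11 after TGFB1. In the D11 vehicle libraries it read 0.0355, 0.0366 and 0.185 FPKM, and in the D11 TGFB1 libraries 68.5, 76.7 and 86.3 FPKM. All 3 TGFB1 libraries lay far above all 3 vehicle libraries, and the ratio of the means was 901, or 2139 without vehicle replicate 3, which holds most of the vehicle signal. In irradiated D7 organoids Isx read 0.165, 0.0937 and 0.225 FPKM with vehicle and 0.964, 0.852 and 0.973 FPKM with TGFB1, 5.77-fold higher. That mean is under the 1 FPKM needed to enter the test, so the difference has no p-value, and the groups did not overlap. In non-irradiated D7 organoids Isx rose 9.40-fold, from 0.343, 0.219 and 0.312 FPKM to 2.85, 3.07 and 2.29 FPKM. That change was 1.53 (SE 0.10) on the log2(FPKM + 1) scale, with a limma adjusted p of 1.76e-07 and of 9.76e-06 with no filter on low values. Isx had its level for testing through the TGFB1 libraries alone, since its vehicle mean was below 1 FPKM. On this scale the change of a low gene is understated.

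Scarb1 and Bco1, the carotenoid receptor and the cleavage enzyme, were lower with TGFB1 in all 3 tables. Scarb1 read 73.2, 78.8 and 75.5 FPKM in non-irradiated D7 vehicle libraries and 55.3, 54.3 and 54.0 with TGFB1, a fall of 1.39-fold (limma adjusted p 7.51e-07). After irradiation the step at D7 was small, from 158.9, 160.8 and 163.2 FPKM to 152.2, 149.5 and 146.3 FPKM, with a log2 change of -0.11 (SE 0.03, limma adjusted p 0.0144). Its adjusted p spanned 0.000314 to 0.157 among the settings, and it was not called with median-ratio scaling, in a fit to all 18 libraries and without vehicle replicate 3. At D11 Scarb1 read 79.4, 91.8 and 102 FPKM with vehicle and 39.3, 43.5 and 38.9 FPKM with TGFB1, 2.24-fold lower with no overlap.

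Bco1 fell 2.36-fold in non-irradiated D7 organoids, from 9.46, 9.92 and 7.06 FPKM to 3.42, 3.99 and 3.81 FPKM (limma adjusted p 1.18e-05). Irradiated D7 organoids held more of it, and it fell 1.72-fold, from 85.9, 89.2 and 90.7 FPKM to 50.6, 55.3 and 48.9 FPKM (limma adjusted p 1.44e-07). At D11 it read 5.51, 6.03 and 16.3 FPKM with vehicle and 1.48, 1.42 and 1.37 FPKM with TGFB1. The D11 ratio of means was 6.52-fold lower with TGFB1 and 4.06-fold lower without vehicle replicate 3, which stood above the other 2 vehicle libraries. That library also had the highest summed level of 12 enterocyte markers of its group, 9114 FPKM against 5358 and 6778, and the part of this in the result was not tested.

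Rbp2, the abundant retinol carrier of the absorptive enterocyte, moved in opposite directions in the D7 tables. It read 83.7, 87.0 and 86.6 FPKM in non-irradiated vehicle libraries and 76.9, 78.6 and 68.4 FPKM with TGFB1, a log2 change of -0.20 (SE 0.05, limma adjusted p 0.00435). A fit to all 18 libraries did not call it, and its adjusted p spanned 0.000521 to 0.364 among the settings tried. After irradiation Rbp2 rose 1.53-fold at D7, from 1729, 1858 and 1923 FPKM to 2727, 2756 and 2949 FPKM (limma adjusted p 7.88e-07). Quantile scaling did not call that rise, whose adjusted p spanned 5.38e-07 to 0.140 among the settings. At D11 Rbp2 read 96.5, 149.9 and 214 FPKM with vehicle and 215, 218 and 250.3 FPKM with TGFB1. The D11 groups did not overlap, but the highest vehicle library lay next to the lowest TGFB1 library.

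Rbp7, a smaller relative of the cellular retinol-binding proteins, was near 0 with TGFB1 at D7. In non-irradiated organoids it fell from 2.65, 2.93 and 4.02 FPKM to 0.069, 0 and 0.280 FPKM. The limma adjusted p was 3.99e-07, and 2.86e-05 with no filter on low values. The ratio of means was 27.5, or 92.7 without TGFB1 replicate 3. Rbp7 had its level for testing there through the vehicle libraries alone. Irradiated D7 libraries read 26.2, 31.3 and 28.8 FPKM with vehicle and 0.399, 0.668 and 0.781 FPKM with TGFB1, 46.7-fold lower. At D11 the vehicle libraries read 2.50, 3.85 and 4.88 FPKM and the TGFB1 libraries 2.19, 2.61 and 2.41 FPKM, and Rbp7 was the 1 gene of the 10 whose groups overlapped there.

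Among the enzymes between retinol and retinal, Rdh7 and Dhrs9 moved in opposite directions in non-irradiated organoids. Rdh7, a retinol dehydrogenase from a cluster of close paralogs whose reads the counting could split, fell 7.80-fold there, from 8.56, 8.30 and 7.85 FPKM to 1.16, 1.12 and 0.891 FPKM (limma adjusted p 1.01e-09). After irradiation it fell 2.03-fold at D7, from 81.2, 84.2 and 83.5 FPKM to 42.0, 43.7 and 37.1 FPKM (limma adjusted p 5.48e-08). At D11 it read 22.8, 28.0 and 35.4 FPKM with vehicle and 5.57, 4.64 and 5.73 FPKM with TGFB1, 5.41-fold lower with no overlap. Every vehicle library therefore lay above every TGFB1 library of its table.

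Dhrs9, a retinol-oxidising dehydrogenase/reductase, rose 4.15-fold in non-irradiated organoids, from 1.14, 1.06 and 1.21 FPKM to 3.83, 5.78 and 4.57 FPKM (limma adjusted p 1.01e-06). Irradiated D7 libraries read 0.835, 1.31 and 1.35 FPKM with vehicle and 1.51, 1.45 and 1.67 FPKM with TGFB1, and that difference did not pass the test (limma adjusted p 0.0731). At D11 it was under 1 FPKM in all 6 libraries, with 0.0973, 0.161 and 0.239 FPKM for vehicle and 0.570, 0.702 and 0.534 FPKM for TGFB1. It was below the level for testing there, and the groups did not overlap.

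The retinaldehyde dehydrogenases Aldh1a1 and Aldh1a3, which make retinoic acid, moved in opposite directions with TGFB1 at D7 and in the same direction at D11. Aldh1a1, which has a near-identical neighbour in Aldh1a7, fell 4.76-fold in non-irradiated organoids, from 14.3, 14.4 and 14.0 FPKM to 2.76, 2.65 and 3.58 FPKM (limma adjusted p 6.03e-09). After irradiation it fell 1.94-fold at D7, from 217, 232 and 229.9 FPKM to 115, 125 and 110.3 FPKM (limma adjusted p 3.24e-08). At D11 it read 22.1, 22.5 and 35.1 FPKM with vehicle and 56.5, 40.7 and 74.2 FPKM with TGFB1, so that all 3 TGFB1 libraries were the higher ones, by 2.15-fold.

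Aldh1a3 was below 1 FPKM in all 9 vehicle libraries and was the gene of the 10 with the largest fold in both D7 tables. It rose from 0.338, 0.250 and 0.636 FPKM to 38.1, 41.6 and 38.7 FPKM in non-irradiated organoids, a ratio of means of 96.8 and a log2 change of 4.85 (SE 0.09, limma adjusted p 2.56e-11, and 8.90e-08 with no filter on low values). It too reached the level for testing through the TGFB1 libraries alone. Irradiated D7 libraries read 0.352, 0.314 and 0.410 FPKM with vehicle and 40.1, 37.8 and 48.5 FPKM with TGFB1, 117-fold higher. At D11 it read 0.577, 0.479 and 0.532 FPKM with vehicle and 11.5, 8.49 and 12.6 FPKM with TGFB1, 20.6-fold higher. The D11 TGFB1 libraries, collected after a 24 h treatment on day 6, lay below the 6 TGFB1 libraries of D7 and above every vehicle library.

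Rarg, which encodes a nuclear receptor for retinoic acid, was higher with TGFB1 in each table. It rose 1.25-fold in non-irradiated organoids, from 8.62, 9.61 and 9.53 FPKM to 10.5, 12.6 and 11.5 FPKM (limma adjusted p 0.00311). After irradiation it rose 2.09-fold at D7, from 3.05, 2.46 and 2.61 FPKM to 5.79, 5.40 and 5.80 FPKM (limma adjusted p 2.50e-06). At D11 it read 6.93, 9.39 and 11.3 FPKM with vehicle and 23.7, 20.3 and 25.4 FPKM with TGFB1, 2.51-fold higher with no overlap.

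In non-irradiated D7 organoids all 10 genes passed the filter of a mean of 1 FPKM, and 4 rose with TGFB1 (Isx, Aldh1a3, Dhrs9 and Rarg) while 6 fell (Rbp2, Rbp7, Rdh7, Aldh1a1, Bco1 and Scarb1). Isx and Aldh1a3 passed that filter through the TGFB1 libraries alone and Rbp7 through the vehicle libraries alone, so these counts are a description. Over all genes tested there, 33.3% were called higher and 34.9% lower. In irradiated D7 organoids 9 of the 10 passed the filter. Of the 7 that were tested, 2 rose (Rbp2 and Rarg) against 35.8% of all genes, 4 fell (Rdh7, Aldh1a1, Bco1 and Scarb1) against 39.7%, and Dhrs9 did not pass. Counted by libraries that do not overlap, 5 were higher there, against 37.1% of genes averaging 1 FPKM or more, and 5 lower, against 41.1%. The 5 higher include Isx, which averaged below that level. At D11 9 passed the filter, all but Dhrs9. There 6 of the 10 were higher with no overlap (Isx, Rbp2, Aldh1a1, Aldh1a3, Dhrs9 and Rarg), and 3 were lower (Rdh7, Bco1 and Scarb1). Of all genes that passed the filter 35.8% were higher and 34.3% lower in this way, and Dhrs9 lies outside those genes. The D11 values chose these genes and nothing is read from that count.

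**Figure D2:**
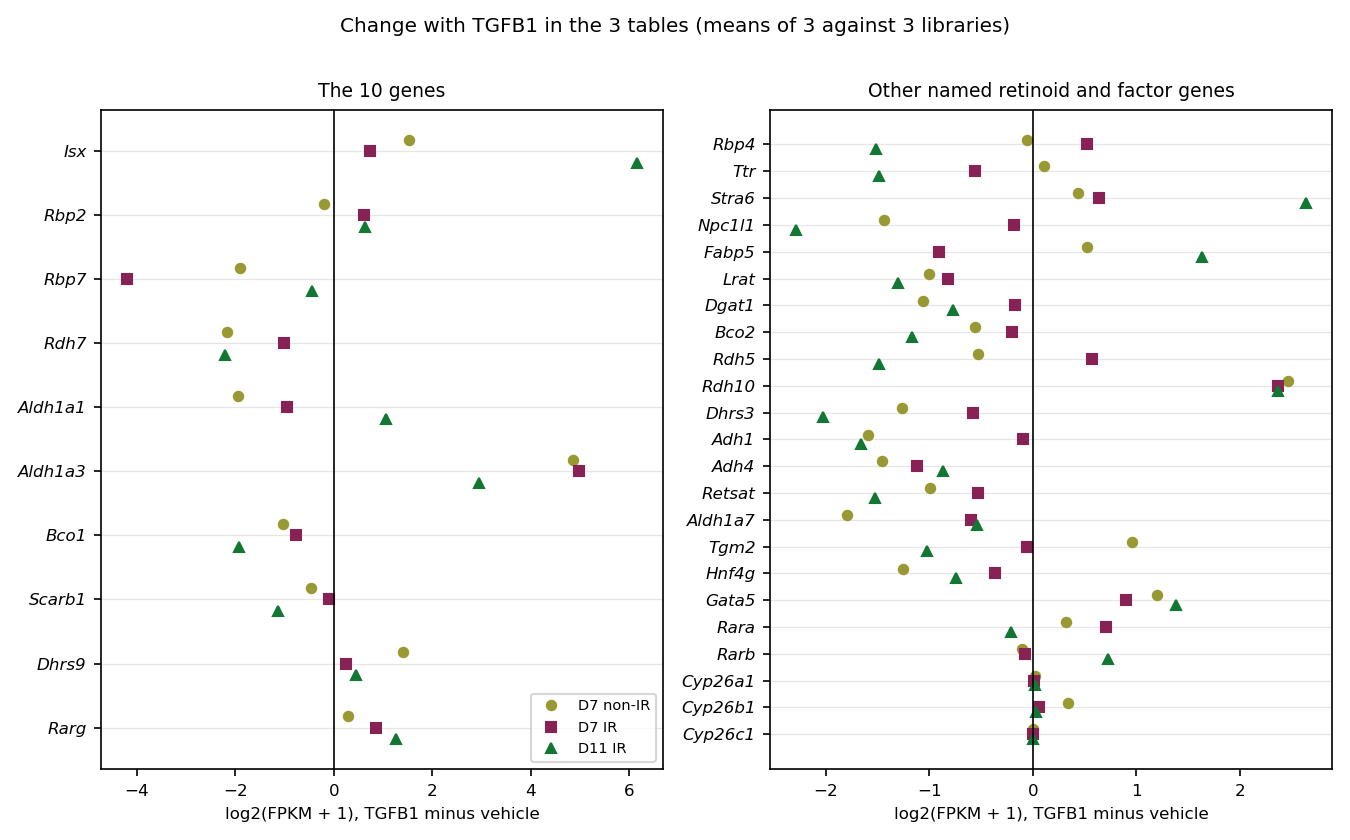
For each of the 10 genes (left) and other named genes (right) the plot gives the TGFB1 minus vehicle difference of mean log2(FPKM + 1) in non-irradiated D7, irradiated D7 and irradiated D11 organoids, 3 libraries per group, with no error bars. Isx at D11 reaches 6.17, and Aldh1a1 lies below 0 in both D7 tables and above 0 at D11.

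The effect of TGFB1 at D7 differed between irradiated and non-irradiated organoids for most of the genes. A limma interaction over the 12 D7 libraries tests that difference on the log2(FPKM + 1) scale. It was positive for Rbp2 at 0.81 (SE 0.07, adjusted p 5.62e-07), for Rdh7 at 1.16 (SE 0.09, adjusted p 1.03e-07) and for Aldh1a1 at 0.99 (SE 0.10, adjusted p 1.84e-06). Scarb1 at 0.36 (SE 0.05, adjusted p 1.57e-05) and Rarg at 0.56 (SE 0.10, adjusted p 0.000425) were positive too. For Rdh7, Aldh1a1 and Scarb1 that means a smaller fall in the irradiated organoids, for Rarg a larger rise, and for Rbp2 a change of direction. The interaction was negative for Dhrs9 at -1.17 (SE 0.17, adjusted p 3.91e-05), whose rise without irradiation was not matched after it. For Isx it was -0.79 (SE 0.13, adjusted p 0.000145, and 0.000243 with no filter on low values), but only the non-irradiated TGFB1 group of Isx averaged over 1 FPKM, so this value rests on that group. For Bco1 it was 0.27 (SE 0.13) and did not pass, with an adjusted p of 0.0968 (0.0012 to 0.599 among the settings tried). Without non-irradiated vehicle replicate 3 it was 0.41 and passed (adjusted p 0.0012). In all 5 of the 8 tested genes were higher and 2 lower, beside 25.3% and 27.8% of all genes. Isx is 1 of the 2 lower and passed the filter through its non-irradiated TGFB1 group, so these counts are a description.

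Vehicle levels also differed between the tables, which were normalised separately, so these levels carry no test. In vehicle libraries 6 of the 10 genes were higher in irradiated than in non-irradiated organoids at D7 with no overlap, against 40.7% of all genes. They were Rbp2 (21.4-fold), Aldh1a1 (15.9-fold), Rdh7 (10.1-fold), Bco1 (10.1-fold), Rbp7 (8.99-fold) and Scarb1 (2.12-fold). Rarg was 3.42-fold lower, where 44.3% of all genes were lower, and Isx, Aldh1a3 and Dhrs9 overlapped. These 6 were lower in irradiated vehicle organoids at D11 than at D7, by 12.0-fold for Rbp2, 8.52-fold for Aldh1a1, 2.88-fold for Rdh7, 9.55-fold for Bco1, 7.69-fold for Rbp7 and 1.77-fold for Scarb1. With Dhrs9 (7.05-fold) that made 7 genes lower, against 33.1% of genes averaging 1 FPKM or more. Rarg (3.40-fold) and Aldh1a3 (1.47-fold) were higher, against 33.7%, and Isx overlapped. Dhrs9 and Aldh1a3 averaged below 1 FPKM over these libraries, so they lie outside the genes of these shares.

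Markers of cell types also differed between the groups, and not always in the direction of the retinoid genes. The 12 enterocyte markers summed to 5628 to 5937 FPKM in non-irradiated D7 vehicle libraries and to 2812 to 2958 FPKM with TGFB1. They summed to 15952 to 16798 FPKM in irradiated D7 vehicle libraries and to 22244.5 to 23314 FPKM with TGFB1, and at D11 to 5358 to 9114 FPKM and 2766 to 3153 FPKM. These 12 did not move together in irradiated D7 organoids, where 6 rose, beside 35.8% of all genes, and 4 fell, beside 39.7%. Apoa1 rose there from 2283 to 6482 FPKM and Apoa4 from 1560 to 3509 FPKM. Anpep fell from 259 to 98.5 FPKM and Sis from 529 to 376 FPKM. Values set against the sum below therefore depend on its few highest markers. In bulk samples fewer cells of a type and less RNA per cell cannot be told apart. Set against that sum, per 1000 FPKM of enterocyte markers, Scarb1 was 13.2 with vehicle and 18.8 with TGFB1 in non-irradiated organoids, the opposite direction to its FPKM. It was 9.87 with vehicle and 6.54 with TGFB1 in irradiated D7 organoids, lower with TGFB1, and 13.2 and 13.6 at D11. Bco1 per 1000 FPKM of enterocyte markers was 1.53 and 1.29, then 5.43 and 2.26, then 1.24 and 0.478 in the order of the 3 tables, lower with TGFB1 each time. Rdh7 on the same scale was 1.44 and 0.362, 5.09 and 1.79, and 4.10 and 1.78. Rbp2 per 1000 FPKM of enterocyte markers was higher with TGFB1 in each table, at 15.0 and 25.7, 113 and 123, and 21.2 and 76.2. Aldh1a1 on that scale was 2.48 and 1.03, 13.9 and 5.12, and at D11 3.76 and 19.1. Isx on that scale was 0.0108 with vehicle and 25.7 with TGFB1 at D11.

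Regenerative markers, 8 genes of the fetal-like state seen in repairing epithelium, were higher with TGFB1 in each table, from 322 to 360 FPKM to 2868 to 2985 FPKM in non-irradiated organoids, from 278 to 309 FPKM to 4666 to 5053 FPKM in irradiated D7 organoids and from 209 to 257 FPKM to 4471 to 5352 FPKM at D11. Gastric or squamous markers (9 genes, of which 2 to 5 were at 0 in all libraries of a group) went from 3.15 to 6.28 FPKM up to 234 to 284 FPKM, from 18.8 to 19.9 FPKM up to 404 to 489 FPKM and from 33.3 to 40.3 FPKM up to 522 to 696 FPKM. The 7 stem markers did not move together. Their sum was 889 to 974 FPKM with vehicle and 679 to 698 FPKM with TGFB1 in non-irradiated organoids, where 3 rose, 3 fell and 1 did not pass. It was 976 to 1010 FPKM and 476 to 553 FPKM in irradiated D7 organoids (1 rose, 4 fell), and 564 to 731 FPKM and 768 to 943 FPKM at D11 (3 rose, 2 fell). The sum followed Olfm4, a stem cell glycoprotein of high level, which averaged 373 and 77.2 FPKM without irradiation and 238 and 450.4 FPKM at D11, while the stem cell receptor gene Lgr5 was 59.0 and 29.2 FPKM at D11. Proliferation markers were lowest in irradiated D7 organoids with TGFB1, at 143 to 163 FPKM against 411 to 524 FPKM in the other groups. Over all 18 libraries the summed Paneth markers ranged from 3433 to 11888 FPKM, goblet markers from 1254 to 3848, enteroendocrine markers from 517 to 2328, tuft markers from 7.55 to 25.2 and colonocyte markers from 8.95 to 79.1. With TGFB1 in irradiated D7 organoids all 9 enteroendocrine and all 7 Paneth markers rose, and at D11 7 of the 9 enteroendocrine markers fell and 5 of the 7 Paneth markers rose. Over all genes tested, 33.3, 35.8 and 32.3% were called higher and 34.9, 39.7 and 31.6% lower in the order of the 3 tables. Immune markers summed to 2.93 to 111 FPKM, highest in non-irradiated organoids with TGFB1, mesenchymal markers to 0.0852 to 4.76 FPKM and endothelial markers to at most 0.228 FPKM. The part of these shifts in the values of the retinoid genes was not tested.

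The D11 pattern of Isx was not unique to it. Among the genes nearest to it over the 18 libraries, by the root mean square difference of centred log2(FPKM + 1) values among 11473 genes, were Krt4 (0.484), Efemp1 (0.662), Wfdc18 (0.748) and Wnt7b (0.886), beside a root mean square of 2.16 for Isx about its own mean. Krt4, a keratin of stratified epithelium, averaged 0.752 FPKM with vehicle and 89.3 FPKM with TGFB1 at D11. Wnt7b, a WNT ligand, averaged 0.158 and 19.4 FPKM. The genes nearest to Aldh1a3 were Lama3 (0.243), a laminin subunit, then Tnfrsf11b, Prkcdbp, P2rx2 and Cwh43 (0.544). Those nearest to Rbp2 were Scin, Otop3, Reg3b, Ugt2b5 and Mme (0.414 to 0.674), and those nearest to Rbp7 were Ces1e, Gstm3, Lipg, Ugt2a3 and Slc13a2 (0.720 to 0.884).

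Other genes of the retinoid pathway were mostly lower with TGFB1. Of 44 listed genes that are not among the 10, 25 could be tested in non-irradiated D7 organoids. There 5 rose, beside 33.3% of all genes, 17 fell, beside 34.9%, and 3 did not pass. The median log2 change was -0.52, beside -0.02 over all genes. In irradiated D7 organoids 27 were tested. Of these 7 rose, beside 35.8% of all genes, 19 fell, beside 39.7%, and 1 did not pass, with a median of -0.24 beside -0.03. At D11 27 were tested, of which 5 rose, where 32.3% of all genes were called higher, 17 fell, where 31.6% were called lower, and 5 did not pass, with a median of -0.67 beside 0.01.

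Among carriers and receptors outside the 10, Stra6, a membrane receptor for retinol bound to plasma RBP4, had means for vehicle and TGFB1 of 0.0177 and 0.383 FPKM, 0.0196 and 0.593 FPKM, and at D11 0.0339 and 5.59 FPKM. It was tested at D11, where its log2 change was 2.65 (limma adjusted p 7.15e-07), and like Isx it had its highest level there. Stra6 reached the level for testing through the D11 TGFB1 libraries alone. Npc1l1, the sterol transporter of the enterocyte brush border, fell in each table, from 51.3 to 18.3 FPKM, from 92.4 to 81.5 FPKM and from 79.5 to 15.4 FPKM. Fabp5, a fatty acid carrier that also binds retinoic acid, rose from 15.2 to 22.1 FPKM, fell from 17.9 to 9.13 FPKM in irradiated D7 organoids and rose from 8.18 to 27.3 FPKM at D11. Rbp4 rose from 12.6 to 18.5 FPKM in irradiated D7 organoids and fell from 28.5 to 9.35 FPKM at D11, and its partner Ttr fell from 25.9 to 17.3 FPKM and from 33.3 to 11.4 FPKM. Neither passed in non-irradiated organoids with all libraries, where Ttr passed without vehicle replicate 1 (0.20, limma adjusted p 0.0388) and Rbp4 without TGFB1 replicate 2 (-0.18, limma adjusted p 0.0246).

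The enzyme genes divided. Rdh10, the main embryonic retinol dehydrogenase, rose 5.64-fold in non-irradiated D7 organoids (35.5 to 200.3 FPKM, limma adjusted p 3.41e-12), 5.27-fold in irradiated D7 organoids (39.6 to 209 FPKM, 4.40e-11) and from 38.9 to 206 FPKM at D11 (4.73e-08). Its difference between irradiated and non-irradiated organoids was -0.10 (limma adjusted p 0.172, and -0.14 with 0.030 without irradiated TGFB1 replicate 3), and between D11 and D7 it was 0.00 (limma adjusted p 0.969). Lrat fell from 2.16 to 0.578 FPKM, from 3.53 to 1.57 FPKM and from 2.44 to 0.396 FPKM. Dhrs3, which reduces retinal back to retinol, fell from 23.1 to 9.07 FPKM, from 42.0 to 27.8 FPKM and from 95.5 to 22.6 FPKM, and the saturase Retsat from 41.9 to 20.5 FPKM, from 79.3 to 54.8 FPKM and from 74.4 to 25.2 FPKM. Adh1, an alcohol dehydrogenase of high level that also acts on retinol, fell from 713 to 236 FPKM and, at D11, from 1002 to 310.3 FPKM. In irradiated D7 organoids its change from 2069.8 to 1937 FPKM passed narrowly (limma adjusted p 0.0381, 1.34e-07 to 0.502 among the settings, and lost without vehicle replicate 2 or 3 or TGFB1 replicate 1 or 2). Dgat1, which esterifies diglycerides and retinol, fell in each table, as did Bco2, which cleaves carotenoids off centre, and Aldh1a7. In irradiated D7 organoids the falls of Dgat1 (248 to 220.4 FPKM) and Bco2 (34.3 to 29.8 FPKM) were not called in a fit to all 18 libraries (limma adjusted p 0.190 and 0.139). Adh4 fell in both D7 tables and did not pass at D11 (limma adjusted p 0.0747, 0.000618 to 0.206 among the settings). It was called lower at D11 in a fit to all 18 libraries, in limma without trend or robust fit, with the replicate number as a block, and without vehicle replicate 1 (-1.13, adjusted p 0.0249) or 3 (-0.52, adjusted p 0.0226). Rdh5 fell in non-irradiated organoids and at D11 and rose in irradiated D7 organoids, from 2.49 to 4.22 FPKM.

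Genes that answer to retinoic acid or encode its receptors gave few testable values. Of 14 listed targets 3 were tested in each D7 table and 4 at D11, with 1 higher and 2 lower, then 0 higher and 2 lower, then 1 higher and 3 lower, too few to set against the 31.6 to 39.7% of all genes called lower. Lrat and Dhrs3, and Stra6 at D11, are among these and were already counted with the pathway genes above, so this is not a separate readout. The retinoic acid hydroxylase Cyp26b1 was at most 0.395 FPKM and Cyp26a1 at most 0.0462 FPKM in any library, and Cyp26c1 was listed at 0 in all 18. Tgm2, a transglutaminase long used as a retinoid target, rose from 47.0 to 92.2 FPKM in non-irradiated organoids, was 38.7 and 37.2 FPKM in irradiated D7 organoids and fell from 70.2 to 34.1 FPKM at D11. Rara rose from 10.9 to 13.9 FPKM and from 19.9 to 33.2 FPKM at D7 and did not pass at D11 (limma adjusted p 0.0732, 0.0130 to 0.268 among the settings, and called lower in a fit to all 18 libraries). Rarb stayed under the level for testing, with means of 0.123 FPKM for vehicle and 0.863 FPKM for TGFB1 at D11. Of 8 intestinal transcription factors 1 rose and 7 fell in each table, where 34.9, 39.7 and 31.6% of all genes fell, with Gata5 higher, from 20.9 to 56.3 FPKM at D11, and Hnf4g lower, from 48.0 to 28.2 FPKM.

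The pathway genes outside the 10 also allow a test of D11 against D7 within irradiated organoids. Of 29 tested, the TGFB1 effect was more positive at D11 for 5, beside 31.5% of all genes, and more negative for 16, beside 33.0%. Stra6 had an interaction of 2.01 on the log2 scale (limma adjusted p 1.04e-06) and Npc1l1 one of -2.11. Only the D11 TGFB1 group of Stra6 averaged over 1 FPKM, so the value for Stra6 rests on that group. For irradiation at D7, 14 of 27 pathway genes had a more positive effect in irradiated organoids, beside 25.3% of all genes, and 6 a more negative one, beside 27.8%, and Npc1l1 had 1.26.

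Single cells from irradiated D8 organoids, which fall between the bulk days, gave almost no Isx. The 4 libraries kept 2932, 4283, 2890 and 2218 cells, with median molecule counts (UMIs) of 6709 to 10441 per cell. Isx had 0, 1, 2 and 1 UMIs at 0, 6, 15 and 24 h, where 3 UMIs would be 0.0925 to 0.114 CPM, a gene's UMIs scaled to the library's total. With 1 library per time there is no test, and intervals cover counting error only.

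Rbp2 was the highest of the 10 in these cells, at 825 CPM at 0 h, 1234 at 6 h, 1752 at 15 h and 1355 at 24 h (95% Poisson interval 1342 to 1368). Rbp7 went from 13.3 through 10.4 and 4.33 to 1.15 CPM, 11.6-fold lower at 24 h, and Rdh7 from 130 through 154 and 140 to 64.8 CPM, 2.01-fold lower. Rarg was low and went from 0.439 through 0.463 and 0.798 to 1.63 CPM, 3.72-fold higher. Aldh1a1 read 424, 443, 413 and 305 CPM, Bco1 84.2, 97.8, 81.1 and 73.7 CPM, Scarb1 45.1, 66.9, 63.1 and 73.0 CPM, and Dhrs9 1.23, 1.76, 1.90 and 1.53 CPM. These moved by less than 2-fold between 0 and 24 h. Scarb1 was 1.62-fold higher at 24 h, whereas it was lower with TGFB1 in the irradiated bulk organoids. Aldh1a1 and Bco1 were lower at 24 h, the same direction as in the irradiated D7 bulk libraries. Aldh1a3 went from 3.48 to 15.1 CPM, 4.35-fold higher, but 98.9% of its UMIs at 0 h and 88.8% at 24 h were fractions of a molecule shared with other genes, and in whole-number entries alone it was 0.0402 and 1.93 CPM. In all 2 genes were at least 2-fold higher at 24 h (Aldh1a3 and Rarg), beside 9.16% of genes, and 2 at least 2-fold lower (Rbp7 and Rdh7), beside 3.15%. Rarg reached the mean of 1 CPM needed for counting through the 24 h library alone. Aldh1a3 did not reach it in whole-number entries, so these counts are a description.

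**Figure D3:**
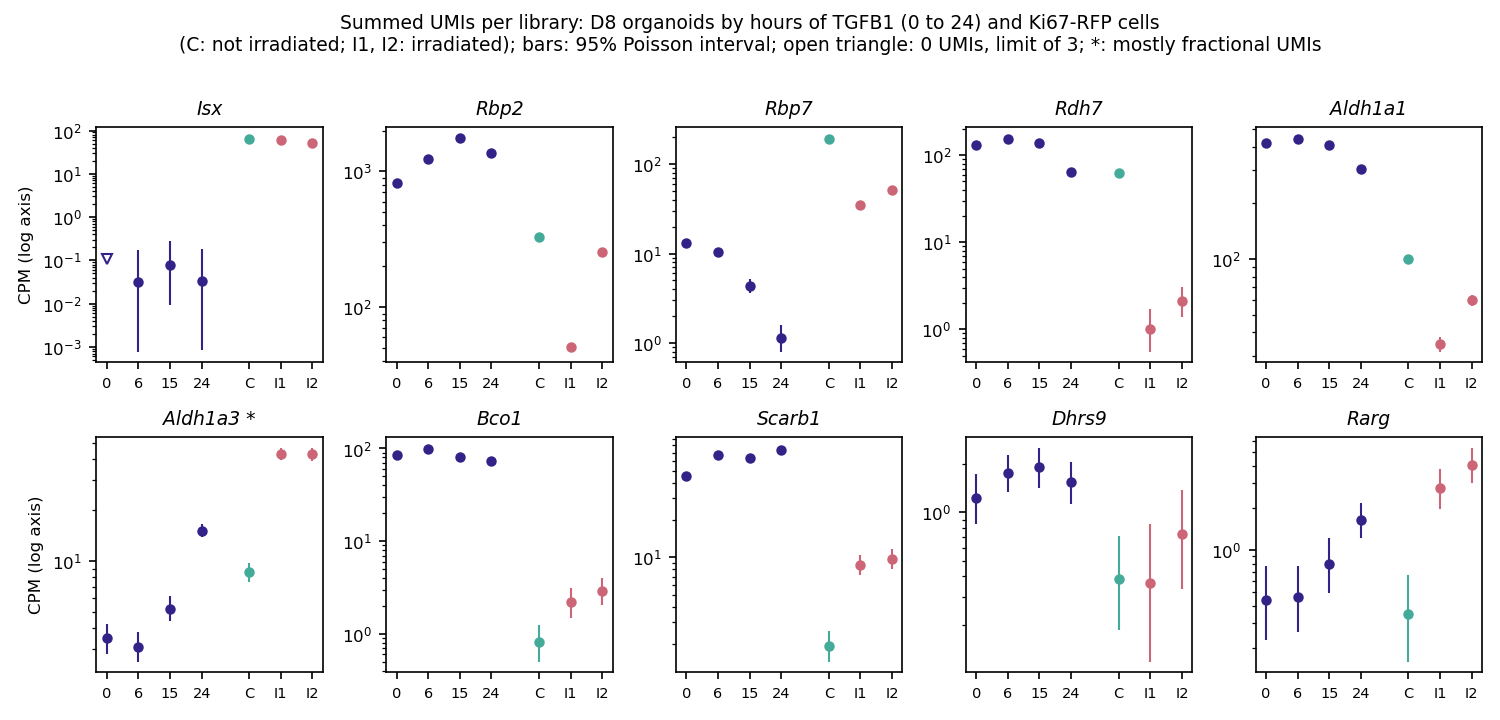
Each panel gives the CPM of 1 gene in the 4 D8 organoid libraries (0, 6, 15 and 24 h of TGFB1) and the 3 Ki67-RFP crypt cell libraries, on log axes, with 95% Poisson intervals as bars and an open triangle at the level of 3 UMIs where none was counted; the asterisk marks Aldh1a3, whose counts are mostly fractional. Isx is near 0 in the organoid cells and lies between 50.5 and 64.7 CPM in the sorted crypt cells.

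Within the organoid cells the genes divided by class. Cells were clustered, and clusters were named from fixed markers as enterocyte-like (912, 1229, 790 and 279 cells by time), proliferating-like (620, 1210, 435 and 230 cells) or regenerative-like (1, 13, 55 and 101 cells). Of all cells 47.7, 42.8, 55.7 and 72.5% stayed unnamed at 0, 6, 15 and 24 h. The enterocyte-like class spans 4 clusters, of which 2 are led by ribosomal protein pseudogenes, and doublets were not removed. Its make-up shifted with time: the main cluster held 733 cells at 0 h and 178 at 24 h, another 109 and 100, and the 2 pseudogene-led clusters 70 and 1, so the levels below compare different mixes. At 24 h 6 of the 10 genes (Rbp2, Rdh7, Aldh1a1, Bco1, Scarb1 and Dhrs9) had their highest level among the named classes in the enterocyte-like cells. Isx, with 1 UMI, was not placed. The share of all genes highest in that class was not computed, so nothing is read from this count. Rbp2 in the enterocyte-like cells was 1843 CPM at 0 h and 2635 CPM at 24 h, and Scarb1 75.5 and 158 CPM. Rdh7 in the same cells was 314 and 191 CPM, while Aldh1a1 (1039 and 1006 CPM) and Bco1 (224 and 233 CPM) were nearly level. In the proliferating-like cells the same genes were lower at 24 h than at 0 h, at 158 and 74.0 CPM for Rbp2, 24.3 and 4.92 CPM for Rdh7, 64.9 and 15.0 CPM for Aldh1a1 and 11.3 and 4.97 CPM for Bco1, whereas Scarb1 was 22.1 and 26.3 CPM. Rbp7 was highest in the proliferating-like cells at 0 h, at 20.05 CPM against 3.35 CPM in the enterocyte-like cells, and was 2.57 CPM there at 24 h.

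The regenerative-like cells at 24 h, a cluster led by Anxa1, Cwh43, Pyy and Ly6d, held 66.5 CPM of Rbp2 and no UMI of Rbp7. Aldh1a3 was 153 CPM there, from 307 UMIs of which 44 lay in whole-number entries. The cells also had 725 CPM of Rdh10.

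**Figure D4:**
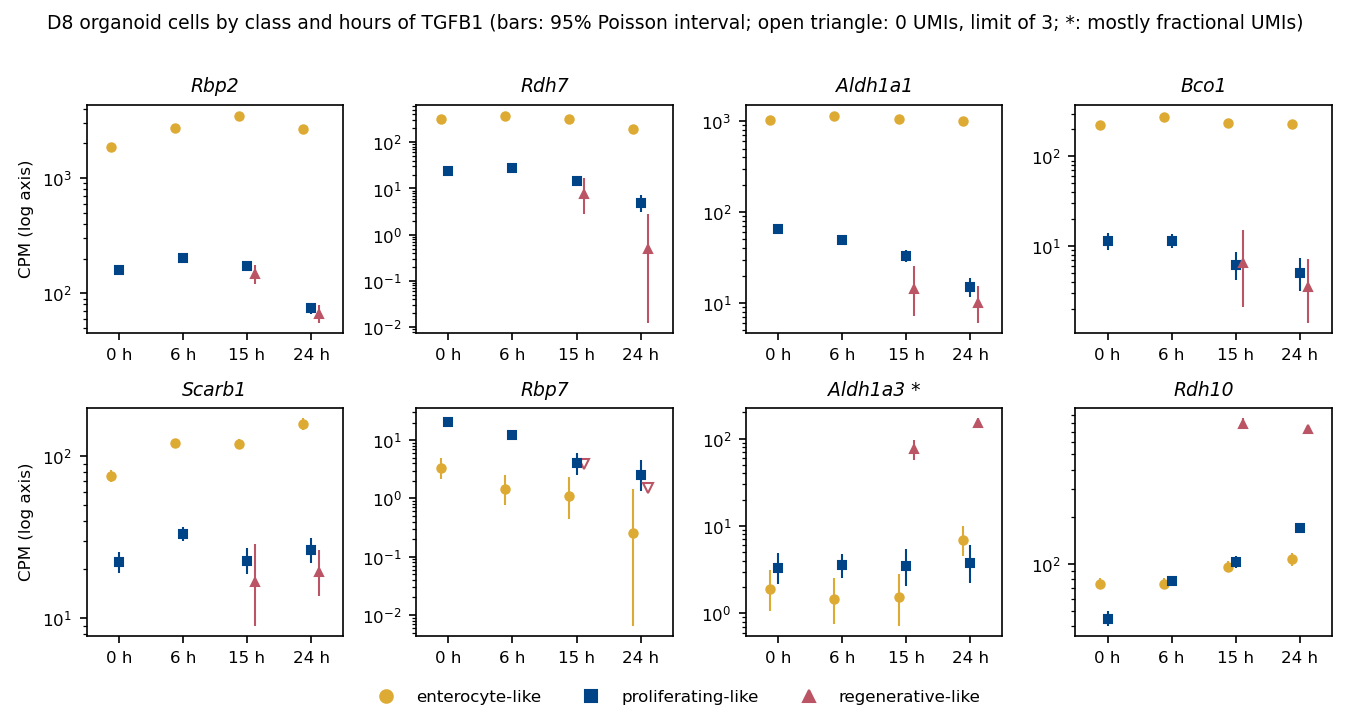
Each panel plots the CPM of 1 gene against hours of TGFB1 in the named cell classes of the D8 organoids, on a log axis, with 95% Poisson intervals as bars, an open triangle at the level of 3 UMIs where none was counted, and only classes of at least 20 cells in a library; the asterisk marks Aldh1a3, whose counts are mostly fractional. Rbp2 lies between 1843 and 3470 CPM in enterocyte-like cells and between 74.0 and 204 CPM in proliferating-like cells.

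In sorted Ki67-RFP crypt cells of the mouse, which are cycling cells by the gate, Isx was well measured. It read 64.7 CPM (95% Poisson interval 61.7 to 67.9, from 1668 UMIs) in the non-irradiated library and 60.9 (56.9 to 65.2) and 50.5 (46.7 to 54.7) CPM in the 2 irradiated ones. The libraries kept 1846, 719 and 699 cells, and 1 library stands for the non-irradiated condition, so there is no test. In the non-irradiated library Isx was 93.8 CPM in enterocyte-like, 65.9 in goblet-like, 42.9 in stem-like and 29.1 in Paneth-like cells. In the irradiated libraries it was 70.0 and 55.9 CPM in a regenerative-like cluster that holds irradiated cells only and may be the libraries and not a type.

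Most other genes of the 10 differed more between those libraries than Isx did. Rbp2 and Dhrs9 each differed about as little as Isx in 1 of the irradiated libraries. The cell mix differed too. The larger enterocyte-like cluster held 430 cells of the non-irradiated library and 0 and 2 of the irradiated ones, and the smaller one 3, 9 and 33. The part of this mix in the differences was not tested. Rdh7 read 62.1 CPM in the non-irradiated library, where its enterocyte-like cells held 162 CPM. It read 1.02 and 2.11 CPM in the irradiated ones, 60.9- and 29.5-fold lower, and Rbp7 read 192 CPM against 34.7 and 51.3 CPM. Scarb1 read 1.94 CPM against 8.72 and 9.75 CPM, Rarg 0.349 CPM against 2.77 and 4.05 CPM, and Bco1 0.811 CPM against 2.22 and 2.92 CPM. Rbp2 differed between the irradiated libraries themselves, at 51.0 and 256 CPM beside 328 CPM in the non-irradiated one, and 35 enterocyte-like cells of the second held 7479 CPM. Aldh1a1 read 99.6 CPM against 34.6 and 59.6 CPM, and Dhrs9 0.388 CPM against 0.364 and 0.729 CPM. Aldh1a3 read 8.55 CPM against 42.7 and 42.8 CPM, with 100% of its UMIs fractional in each library, so they cannot be assigned to Aldh1a3 alone. By at least 2-fold in both irradiated libraries, 4 genes were higher (Aldh1a3, Bco1, Scarb1 and Rarg), beside 11.9% of genes, and 2 lower (Rbp7 and Rdh7), beside 5.52%. Bco1 and Rarg reached the mean of 1 CPM needed for counting through the irradiated libraries alone. Aldh1a3 is counted from fractional UMIs only, so these counts are a description.

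The bulk libraries were alike in scale, with an upper quartile of 23.7 to 25.3 FPKM, and the median coefficient of variation within a group was 3.13 to 8.24%, highest in D11 vehicle. The FPKM files give no read totals. Single-cell libraries held 1.23e+07 to 3.24e+07 UMIs, of which 8.67 to 22.0% were fractional, and no pair of them shared more than 1 cell barcode.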

How the data were processed

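Bulk RNA values were deposited as FPKM in 3 tables of 6 libraries. The submitters' processing notes name TopHat2 2.1.0 and Cuffnorm and Cuffdiff 2.2.1, STARsolo in STAR 2.7.10a, and the builds mm9, mm39 and GRCm39, without saying which file each made. As deposited, the single-cell files hold expected counts (estimated counts of UMIs per gene and cell), in which molecules shared between genes are split into fractions. They were summed unrounded per library and class.

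FPKM values were tested per table as log2(FPKM + 1) for genes averaging 1 FPKM or more, with limma 3.58.1 (trend and robust, R 4.3.3), two-sided, Benjamini-Hochberg adjusted over all genes at 0.05. Interactions used 12 libraries. Cells with at least 500 UMIs and 250 genes and at most 20% mitochondrial UMIs were clustered with scanpy 1.11.5 (Leiden resolution 0.6, igraph 0.11.9). CPM intervals are 95% exact Poisson intervals (scipy 1.17.1). Clusters were named from at least 3 fixed markers. The statistics were tested on simulated data. The genes and lists were chosen with earlier results of these data known. Genes named outside the 10 had an adjusted p under 0.05 and at least a 2-fold change in 1 or more of the 3 TGFB1 comparisons, or were receptors of retinoic acid or Cyp26 enzymes. The alternatives were another pseudocount (0.1), no filter, other scalings, a fit to all 18 libraries, a replicate block, leaving out each replicate, stricter cell filters and Leiden resolution 1.0. Chromatin accessibility libraries were not analysed here. Some genes that met these rules are not reported here.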

Additional observations from a re-analysis of the deposited data

Results flagged for a closer look

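The change with TGFB1 at D7 differed between irradiated and non-irradiated organoids, by the limma interaction test, for 7 of the 8 genes tested, in an interaction that called 25.3% of all genes higher and 27.8% lower. The difference on the log2(FPKM + 1) scale was 1.16 for Rdh7, 0.99 for Aldh1a1, 0.81 for Rbp2, 0.56 for Rarg and 0.36 for Scarb1, and it was -1.17 for Dhrs9 and -0.79 for Isx, of which only the non-irradiated TGFB1 group averaged over 1 FPKM. Since Isx passed the filter through that group, the count of 7 is a description. Rbp2 fell without irradiation and rose with it, but the fall was not called in a fit to all 18 libraries (limma adjusted p 0.364) nor the rise with quantile scaling (limma adjusted p 0.140).

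Aldh1a1 was lower with TGFB1 in every irradiated D7 library and higher in every D11 library, where the ratio of means was 2.15. The difference between the days was not tested for this gene.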

How the results depend on the processing

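The number of genes called for the TGFB1 effect was 7732 in non-irradiated D7 organoids (6804 to 8372 over the alternatives), 8495 in irradiated D7 organoids (8100 to 9405) and 7335 at D11 (6464 to 8487). It was 6061 for the irradiation interaction (4866 to 6413) and 7387 for the day interaction (6937 to 8331). With the replicate block these counts were 7701, 8417, 7351, 5967 and 7451, and Adh4 at D11 and in the irradiation interaction was called (limma adjusted p 0.000618 and 0.0396). Same-numbered libraries do not share a stated source, their deviations correlated at -0.0874 to 0.211, and 5 of 9 pairings were the best match of their own number. The count of genes that moved at least 2-fold in D8 organoid cells was 4, and 2 with whole-number entries alone, where Rdh7 went from 143 to 73.3 CPM, just short of 2-fold, and Aldh1a3 was left below the level for counting. The Ki67-RFP count of 6 ranged from 5 to 8, and the count of 6 for vehicle libraries from 6 to 7. Rbp4 in non-irradiated D7 organoids, which did not pass, ranged from -0.178 to 0.0541 with 1 replicate left out: it was 0.0541 without TGFB1 replicate 3 (limma adjusted p 0.555), the opposite sign; the cause was not tested. The bulk files give no read totals, so depth sets no stated limit there. Settings for the accessibility libraries were not run.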

Other observations

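In the sorted Ki67-RFP crypt cells, where 1 non-irradiated library faces 2 irradiated ones and there is no test, 30 of the 44 listed pathway genes outside the 10 reached a mean of 1 CPM. Of these, 13 were at least 2-fold lower in both irradiated libraries, beside 5.52% of all genes, 2 were at least 2-fold higher, beside 11.9%, and 15 were neither. The larger enterocyte-like cluster held 430 cells of the non-irradiated library and 0 and 2 of the irradiated ones. The part of this cell mix in the counts was not tested. Adh1 read 347 CPM in the non-irradiated library and 16.8 and 29.4 CPM in the irradiated ones. Lrat read 16.3 CPM against 2.84 and 2.92 CPM, and Npc1l1 65.7 CPM against 18.1 and 31.1 CPM. Adh4 had 222 UMIs in the non-irradiated library and 1 and 2 UMIs in the irradiated ones. Rdh10 was among the higher, at 14.9 CPM against 36.2 and 37.7 CPM. In the D8 organoid libraries 28 of the listed genes were counted, of which 3 were at least 2-fold higher at 24 h than at 0 h, beside 9.16% of all genes, and 1 lower, beside 3.15%. Rdh10 there read 57.9, 78.7, 132 and 181 CPM at 0, 6, 15 and 24 h of TGFB1, higher at each later time. Lrat was nearly level, at 13.7, 11.7, 13.6 and 11.5 CPM, and Stra6 had at most 1 UMI in any organoid library.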
